A study of Mus musculus with 6 samples.

Results

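The 8 genes described here mark the upper layers of the cerebral cortex, layers 2 to 4. They are *Cux1*, *Cux2*, *Rorb*, *Calb1*, *Wfs1*, *Otof*, *Rasgrf2* and *Lamp5*. They were chosen by name as known layer markers, and each matched 1 Ensembl identifier among the 18254 genes of the deposited table. Tissue came from the medial prefrontal cortex (mPFC) of male C57BL/6J mice, 10 to 12 weeks old, which either carried an EGFP-*Shank3* transgene (*Shank3* TG) or were their wild-type (WT) littermates. Each genotype has 3 libraries, numbered 1, 2 and 3 and called TG-1, WT-1 and so on, and every library holds RNA of a pair of mice of that genotype, so that a replicate is a pool. The promoter that drives the transgene is not given in the sources used here. The values are normalized counts, that is, estimated reads per gene scaled by size factors in DESeq2.

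Neurons of the neocortex are stacked in layers that differ in birth order, connections and gene expression. Neurons of the upper layers are born late and send their axons mainly to other cortical areas, whereas neurons of layers 5 and 6 project largely to subcortical targets. The mPFC of the mouse is agranular and lacks a distinct layer 4. Cux1 and Cux2 are paralogous homeodomain transcription factors of upper layer neurons with roles in dendrite and spine growth, and Rorb is an orphan nuclear receptor that takes part in layer 4 identity. Calb1 (calbindin) buffers cytosolic calcium. Wfs1 (wolframin) is a membrane glycoprotein of the endoplasmic reticulum. Otof (otoferlin) is a calcium sensor of vesicle exocytosis best known from cochlear inner hair cells, and its transcript marks layer 2/3 neurons. Rasgrf2 is a calcium-responsive exchange factor for Ras-family GTPases, and Lamp5 belongs to the lysosome-associated membrane protein family. Several of these genes are also used by other cells, such as *Lamp5* by neurogliaform interneurons, *Calb1* by interneurons and striatal neurons, and *Rorb* by astrocytes.

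For *Otof* and *Wfs1*, all 3 *Shank3* TG libraries lay above all 3 WT libraries. *Rorb* was higher in TG-1 and TG-2 than in all WT libraries and low in both libraries numbered 3. The groups overlapped for *Rorb* and for the other 5 members, *Calb1*, *Cux1*, *Cux2*, *Rasgrf2* and *Lamp5*. All 8 members passed the filter, a mean of 5 or more normalized counts, that left 16714 genes to compare. For none of the 8 did limma's moderated test give an adjusted p-value below 0.05, nor for any other tested gene, *Shank3* included.

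Library sums of the normalized counts ran from 28363967 to 29447717. *Shank3* itself had at least 16310 normalized counts in each *Shank3* TG library and at most 8374 in any WT library, as the labels say. Excitatory neurons were well represented, with 8 markers summing to between 200835 and 268172 normalized counts. The libraries TG-3 and WT-3 stood apart from the other 4 in both genotypes, with a correlation of 0.62 between their deviations from the genotype means over all tested genes. TG-2 also stood apart, because 4 olfactory bulb genes (*Doc2g*, *Cdhr1*, *Eomes* and *Tbx21*) summed to 1316 normalized counts there and to between 127 and 302 in the other 5 libraries. Oligodendrocyte markers moved with the genotype, and *Mobp*, a myelin protein gene, had 9453 to 13572 normalized counts in *Shank3* TG and 14760 to 18216 in WT. In RNA from whole tissue, fewer cells of a type and less RNA per cell cannot be told apart.

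**Figure D1:**
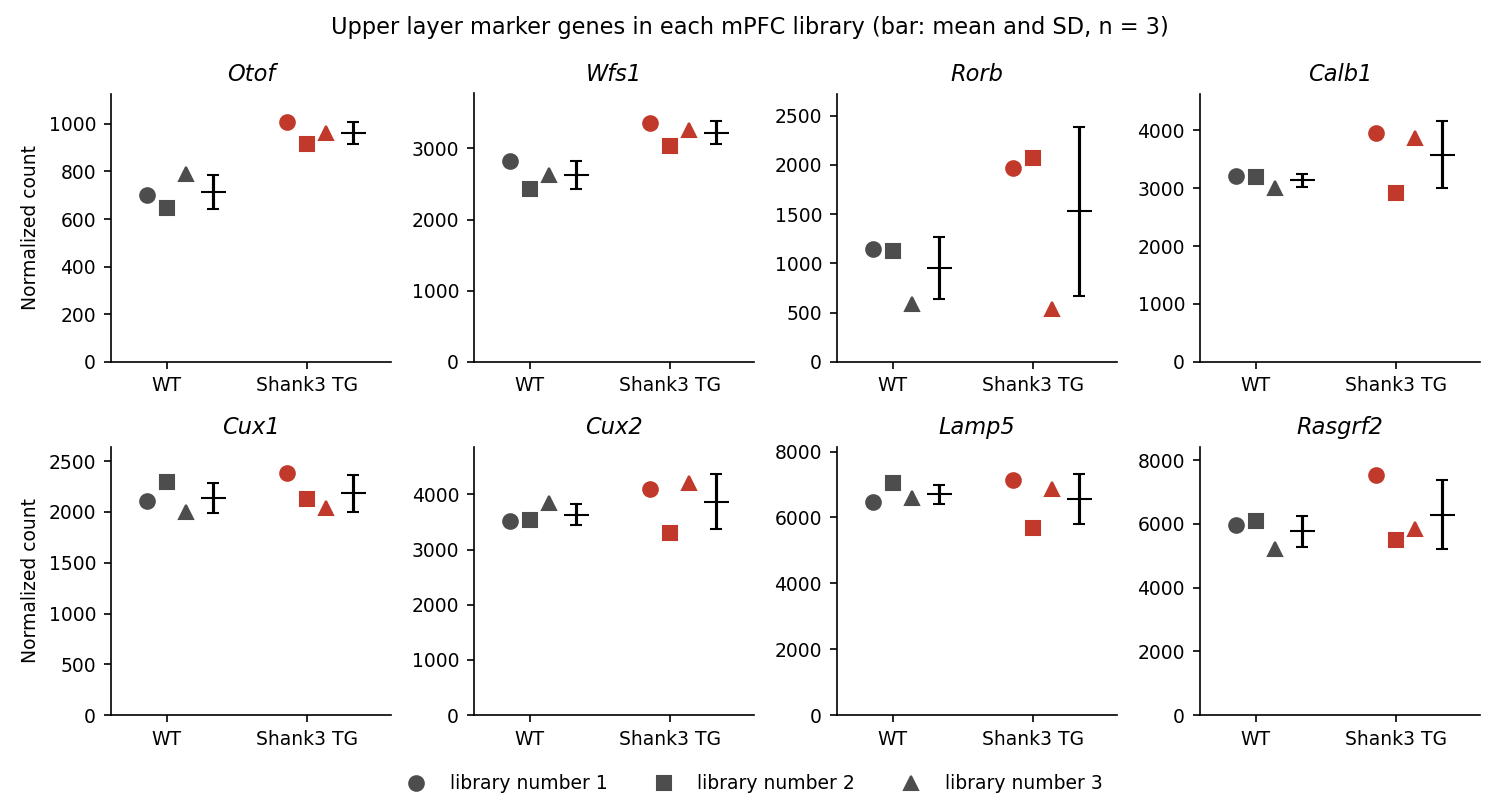
Normalized counts (vertical axes, from 0) of the 8 upper layer genes in each library, with WT in grey, *Shank3* TG in red and the shape giving the library number. Horizontal marks with bars are the mean and SD of 3 libraries. The groups are apart for *Otof* and *Wfs1*, and the 2 libraries numbered 3 are the lowest for *Rorb*.

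Among the transcription factors, *Cux1* (ENSMUSG00000029705, GRCm38 chromosome 5 from 136248135 to 136567490, minus strand) had 2381, 2128 and 2034 normalized counts in TG-1 to TG-3. In WT-1 to WT-3 it had 2111, 2298 and 1999. The genotypes overlapped over nearly their whole range, with a log2 fold change of 0.03 and a standard error of 0.09. Its 95% interval ran from -0.18 to 0.24, that is from 0.883-fold to 1.18-fold. The *Cux1* gene has 14 annotated transcripts, some of which encode the Golgi protein CASP in place of the homeodomain protein, and the gene-level values do not separate them.

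*Cux2* (ENSMUSG00000042589, chromosome 5 from 121856366 to 122050102, minus strand) gave 4093, 3292 and 4213 normalized counts in TG-1, TG-2 and TG-3, and WT-1, WT-2 and WT-3 gave 3519, 3535 and 3849. TG-1 and TG-3 were above all WT libraries and TG-2 was below them. On the log2 scale the fold change was 0.08 (standard error 0.11, 95% interval -0.16 to 0.33). With single libraries left out it ran from 0.015 (TG-3) and 0.036 (TG-1) to 0.12 (WT-3) and 0.19 (TG-2).

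*Rorb* (ENSMUSG00000036192, chromosome 19 from 18930605 to 19111196, minus strand) had 1974, 2072 and 540 normalized counts in TG-1, TG-2 and TG-3, and 1151, 1124 and 586 in WT-1, WT-2 and WT-3. The number of the library separated these values more than the genotype did. TG-3 held 26.7% of the mean of TG-1 and TG-2, and WT-3 held 51.5% of the mean of WT-1 and WT-2. A fall at number 3 in both genotypes of at least the size seen in WT was shared by 0.568% of the tested genes. The root mean square deviation of *Rorb* over the 6 libraries was 0.76 on the log2 scale, larger than that of 96.1% of the tested genes and more than that of any other member, which lay between 0.09 and 0.24.

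For *Rorb* over all 6 libraries, the log2 fold change was 0.51 with a standard error of 0.52 (95% interval -0.68 to 1.71), and limma's unadjusted p-value was 0.349. With the library number added to the model as a block, the standard error was 0.17, the unadjusted p-value 0.0147 and the adjusted p-value from limma 0.80. This standard error is moderated by limma toward the trend of spread over all tested genes, and *Rorb* varied more than most of them. In a fit of the libraries numbered 1 and 2 alone, the log2 fold change was 0.83 (standard error 0.08, 95% interval 0.64 to 1.02), with an adjusted p-value of 0.0583 in limma's test over 16634 genes. That fit called 0.00601% of its genes at an adjusted p-value of 0.05, namely *Shank3* alone. The log2 ratio of TG to WT was 0.78 at number 1 and 0.88 at number 2. Between the libraries numbered 3 the difference had the other sign, with a log2 ratio of TG-3 to WT-3 of -0.12. Leaving out single libraries gave 1.15 without TG-3, and 0.18 without TG-2, 0.21 without TG-1 and 0.20 without WT-3. The olfactory bulb genes summed to 1316 in TG-2 and to 127 in TG-1, the libraries with the highest values of *Rorb*. The 8 astrocyte markers overlapped between the genotypes, with sums of 115801 to 128809 in *Shank3* TG and 118729 to 133935 in WT, and their median log2 fold change was 0.00. Their mean log2 level, relative to the 6-library mean of each gene, was lowest at number 3 in both genotypes. It was 0.06, 0.13 and -0.18 in TG-1 to TG-3 and 0.09, 0.02 and -0.12 in WT-1 to WT-3. The part of either list in the values of *Rorb* was not tested.

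Of the genes that handle or sense calcium, *Otof* (ENSMUSG00000062372, chromosome 5 from 30367062 to 30461932, minus strand) had 1007, 915 and 962 normalized counts in TG-1 to TG-3. It had 701, 648 and 790 in WT-1 to WT-3. The lowest *Shank3* TG library, TG-2, was above the highest WT library, WT-3, and the difference of the means was larger than the SD of either group. The means were 961 ± 45.6 in *Shank3* TG and 713 ± 71.5 in WT (SD, n = 3 each), so that *Shank3* TG was 34.8% higher. The fitted log2 fold change was 0.43 (standard error 0.10, 95% interval 0.21 to 0.66), and the log2 ratio at the library numbers 1, 2 and 3 was 0.52, 0.50 and 0.28.

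For *Otof*, limma gave an unadjusted p-value of 0.00233 and an adjusted p-value of 0.9999 without the block and 0.35 with it. Dividing all z-scores by their observed width (an empirical null) was the 1 setting that put *Otof* past the threshold, at an adjusted p-value of 0.0438. That setting called 26 of the tested genes, or 0.156%. It used the width of the z-scores without the block, 0.731, whereas the width with the block was 0.996. The study also corrected its p-values by an empirical null, estimated in another way, with fdrtool. The exact two-sided permutation test of 3 libraries against 3 gave p = 0.1 for *Otof*, which is the smallest value it can give.

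*Wfs1* (ENSMUSG00000039474, chromosome 5 from 36966104 to 36989205, minus strand) reached 3354, 3039 and 3262 normalized counts in TG-1, TG-2 and TG-3, against 2820, 2435 and 2620 in WT-1, WT-2 and WT-3. The lowest *Shank3* TG library, TG-2, was above the highest WT library, WT-1. The mean was 3218 ± 162 (SD, n = 3) against 2625 ± 192, or 22.6% higher in *Shank3* TG. This was a log2 fold change of 0.30 (standard error 0.08, 95% interval 0.11 to 0.49), and the ratios at the 3 library numbers were alike, 0.25, 0.32 and 0.32 on the log2 scale. In limma's test the unadjusted p-value of *Wfs1* was 0.00724, and the adjusted p-value was 0.9999 without the block, 0.35 with it and 0.067 with the empirical null. The exact permutation p-value was again 0.1.

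*Calb1* (ENSMUSG00000028222, chromosome 4 from 15881264 to 15908064, plus strand) had 3949, 2908 and 3860 normalized counts in the libraries of *Shank3* TG, and in those of WT it had 3212, 3194 and 3007. TG-1 and TG-3 lay above every WT library, whereas TG-2 lay below every WT library. Its log2 fold change was 0.17 (standard error 0.12, 95% interval -0.11 to 0.46), and it ran from 0.095 without TG-1 and 0.11 without TG-3 to 0.32 without TG-2, and was 0.081 with the libraries numbered 1 and 2 alone. Striatal neurons also express *Calb1*, and 8 striatal markers summed to 4731 to 5019 normalized counts in *Shank3* TG and to 4586 to 4916 in WT, with overlap. The 10 markers of inhibitory neurons, a further source of *Calb1*, summed to 26846 to 27416 in *Shank3* TG and to 26294 to 26467 in WT, without overlap. Their part in the values of *Calb1* was not tested.

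The remaining members encode signalling and membrane proteins. *Rasgrf2* (ENSMUSG00000021708, chromosome 13 from 91880400 to 92131656, minus strand) had 7538, 5507 and 5827 normalized counts in TG-1, TG-2 and TG-3, and in WT-1, WT-2 and WT-3 it had 5973, 6098 and 5219. TG-1 alone lay above the WT libraries. Its log2 fold change of 0.12 (standard error 0.13, 95% interval -0.18 to 0.41) was -0.02 without TG-1.

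*Lamp5* (ENSMUSG00000027270, chromosome 2 from 136052239 to 136069917, plus strand) had 7128, 5686 and 6858 normalized counts in TG-1, TG-2 and TG-3 against 6482, 7042 and 6579 in WT-1, WT-2 and WT-3. TG-1 was the highest and TG-2 the lowest of the 6 libraries. Its log2 fold change of -0.04 (standard error 0.10, 95% interval -0.26 to 0.19) was the 1 negative value among the members and was 0.06 without TG-2.

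Counted together, 7 of the 8 members had a log2 fold change above 0, against 48.6% of all tested genes, and the median was 0.15 for the members and 0.00 for all tested genes. Without TG-1 the count was 5 of 8, since *Rasgrf2* and *Cux1* were then below 0 too, and the median was 0.066. The median was 0.088 with the libraries numbered 1 and 2 alone. At an adjusted p-value of 0.05, limma called 0% of the tested genes without the block and 0.00598% with it, the latter being *Shank3*, and 0 of the 8 members in both. At an unadjusted p-value of 0.05 it called 2.01% of the tested genes, 0.933% as higher and 1.08% as lower in *Shank3* TG. Of the 8 members it called 2 at that level, *Otof* and *Wfs1*, both as higher. With the block these shares were 4.98% of the tested genes, 2.33% as higher and 2.66% as lower. Of the 8 members, 3 were then called, all as higher. The third was *Rorb*, which was lower in TG-3 than in WT-3. The groups did not overlap for 6.02% of the tested genes, with *Shank3* TG wholly above WT for 2.91%, and for 2 of the 8 members, or 25%, both with *Shank3* TG above. The same 2 members were higher in *Shank3* TG at each of the 3 library numbers, as were 11.6% of the tested genes. The members were named with earlier results of these libraries known, so these counts are a description.

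**Figure D2:**
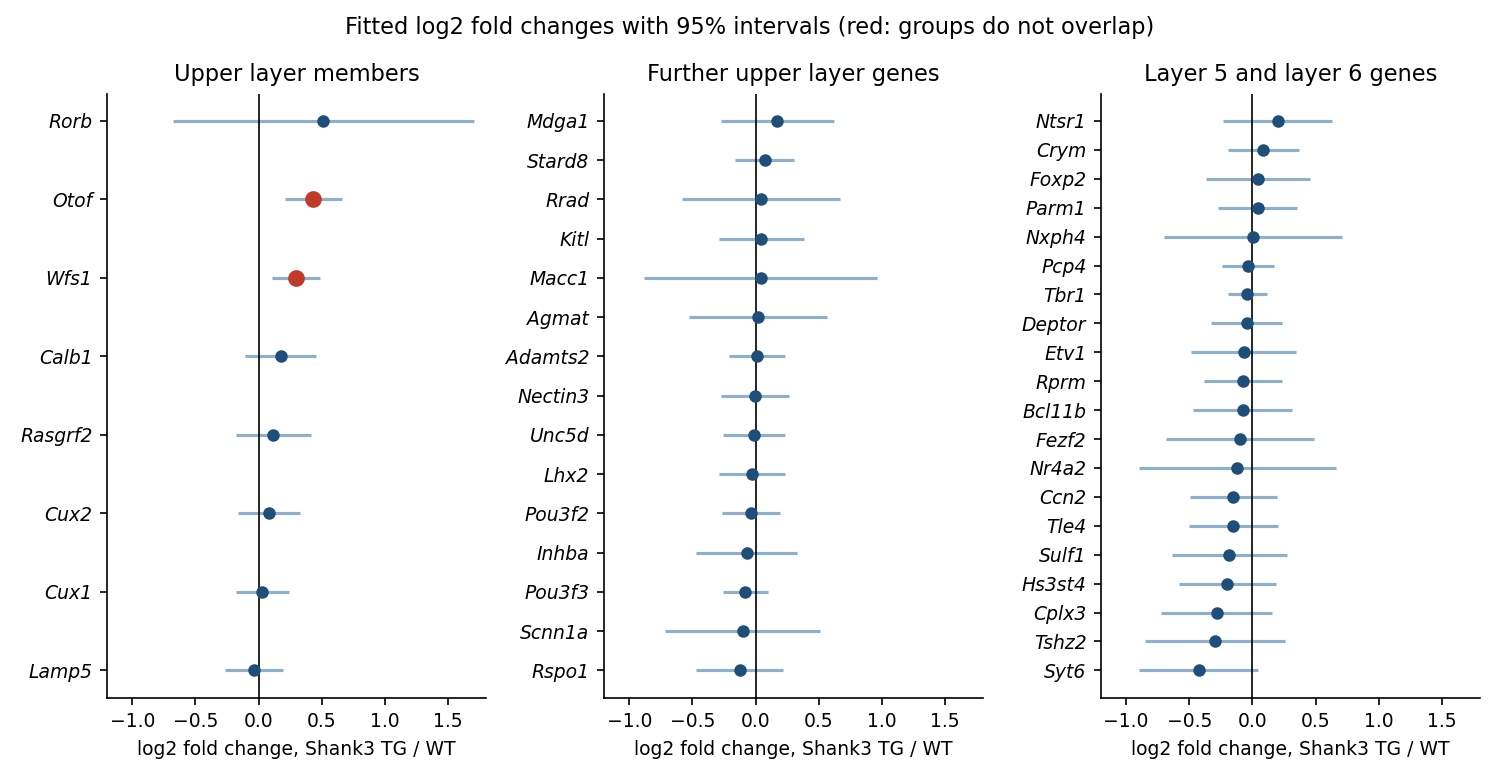
Fitted log2 fold change of *Shank3* TG over WT (horizontal axes) with its 95% interval for the 8 members, 15 further upper layer genes and 20 genes of layers 5 and 6, with genes whose groups do not overlap in red. *Otof* and *Wfs1* are the only red points and the only intervals that leave out 0, and the interval of *Rorb* is the widest.

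Of the 6 members whose groups overlapped, the 5 other than *Rorb* had a pattern in common. Each of the 5 was higher in TG-1 than in WT-1, lower in TG-2 than in WT-2 and higher in TG-3 than in WT-3, an order found in 14.4% of the tested genes. Likeness of profile was measured as the root mean square difference of log2 values centred on each gene over the 6 libraries. By this measure *Lamp5* and *Cux2* were nearest to each other (0.09), as were *Cux1* and *Rasgrf2* (0.10), and *Cux2* was the nearest member to *Calb1* (0.09). *Otof* and *Wfs1* were nearest to each other (0.11). *Rorb* was far from every member, at 0.68 from the nearest, *Rasgrf2*. The genes nearest to the mean profile of the 8 members, among 13447 candidates whose mean reached 50 normalized counts, were *Marveld1* (0.03), *Asb2* (0.04) and *Elovl2* (0.04).

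The size of the *Otof* difference was also read within each library, as its log2 ratio to the mean of the 6 members other than itself and *Rorb*. This ratio was -2.12, -1.95 and -2.07 in TG-1 to TG-3 and -2.40, -2.52 and -2.18 in WT-1 to WT-3. The groups did not overlap, with the lowest *Shank3* TG library, TG-1, above the highest WT library, WT-3. For *Wfs1* the ratio was -0.09, 0.07 and -0.01 in *Shank3* TG and -0.06, -0.30 and -0.16 in WT, and TG-1 lay below WT-1. The ratio of *Lamp5* did not overlap either, in the other direction, with 1.18, 1.13 and 1.24 in *Shank3* TG and 1.34, 1.49 and 1.39 in WT, but *Otof* and *Wfs1* are part of the mean it was set against.

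**Figure D3:**
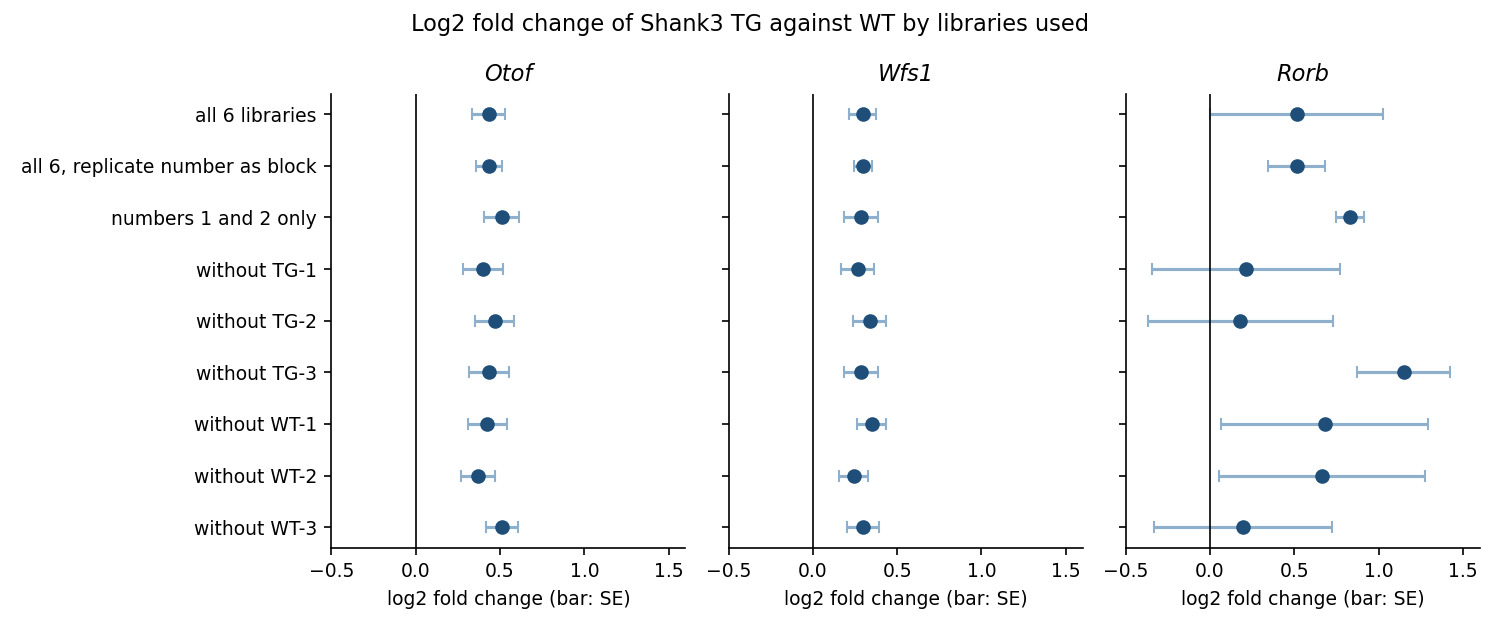
Log2 fold change of *Shank3* TG over WT with its standard error (horizontal axes) for *Otof*, *Wfs1* and *Rorb*, fitted with all 6 libraries, with the replicate number as a block, with the libraries numbered 1 and 2 alone and with each library left out. *Otof* stays between 0.37 and 0.51 and *Wfs1* between 0.24 and 0.35 with single libraries left out, whereas *Rorb* runs from 0.18 to 1.15.

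Levels were compared between the members after division by the length of the longest coding transcript. *Lamp5* was the highest, with 3391 ± 269 normalized counts per kb (SD over the 6 libraries). *Rasgrf2* with 1040 ± 139, *Calb1* with 795 ± 105 and *Wfs1* with 771 ± 95.6 per kb followed, and *Calb1* and *Wfs1* differed by less than their spread. *Cux2* had 427 ± 41.1 per kb. *Cux1* with 168 ± 11.7, *Rorb* with 134 ± 70.9 and *Otof* with 117 ± 20.5 per kb were the lowest, and the spread of *Rorb* covered both of its neighbours. Divided by the whole exonic length instead, *Lamp5* stayed the highest and *Cux2* the fifth, the order of *Rasgrf2*, *Calb1* and *Wfs1* turned round, and the lowest 3 stayed the lowest. By exonic length *Otof*, *Cux1* and *Rorb* differed by less than their spread, with 106 ± 18.5, 108 ± 7.5 and 112 ± 59.5 per kb. In TG-3 and WT-3 *Rorb* was below *Otof*, with 58.1 and 63.0 normalized counts per kb of transcript against 135 and 111. On the log2 scale the root mean square deviation of *Otof* over the libraries, 0.24, was the second largest after that of *Rorb*.

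A second list held 15 further genes of upper layer neurons, among them the transcription factors *Pou3f3*, *Pou3f2* and *Lhx2* and the netrin receptor gene *Unc5d*. Of the 15, limma called 0 at an unadjusted p-value of 0.05, with or without the block, and 0 had groups without overlap. Among all tested genes these shares were 2.01% and 4.98% called and 6.02% without overlap, so that 0 of 15 is near the background. Their median log2 fold change was -0.01, with 7 genes above 0 and 8 below, from -0.13 for *Rspo1* to 0.17 for *Mdga1*. *Pou3f3*, the most abundant, averaged 3455 ± 188 normalized counts (SD, n = 3) in *Shank3* TG against 3654 ± 204 in WT, with a log2 fold change of -0.08 and a standard error of 0.08. *Lhx2* had a log2 fold change of -0.03, *Stard8* of 0.07 and *Unc5d* of -0.01, each with an interval that included 0. The layer 4 gene *Scnn1a* had at most 45.2 normalized counts in any library.

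Layers 5 and 6 were read from 20 genes, of which 5 had a log2 fold change above 0 and 15 below, with a median of -0.08. At an unadjusted p-value of 0.05, limma called 0 of the 20 without the block and 3 with it. Among all tested genes it called 2.01% and 4.98%, with 1.08% and 2.66% as lower. The 3 were *Tshz2* (log2 fold change -0.30), *Syt6* (-0.43) and *Hs3st4*, all fitted as lower in *Shank3* TG. At number 2 their log2 ratios of TG to WT were 0.02, 0.01 and 0.06, so none was lower at every library number. *Tbr1*, a transcription factor of layer 6 neurons, averaged 4393 ± 116 normalized counts in *Shank3* TG against 4517 ± 170 in WT, with a log2 fold change of -0.04 and a standard error of 0.07. *Pcp4*, a calmodulin-binding protein gene of layer 5, had a log2 fold change of -0.04, *Etv1*, a transcription factor gene of layer 5, had -0.07 and *Parm1*, a further gene of layer 5, had 0.04. *Bcl11b*, which specifies subcerebral projection neurons, had -0.08, and the layer 6 genes *Tle4*, *Hs3st4* and *Rprm* had -0.15, -0.20 and -0.07. The 5 genes above 0 were *Ntsr1* (0.20), *Crym* (0.09), *Foxp2* (0.05), *Parm1* and *Nxph4* (0.0034). The median of the 20 genes was 0.02 without WT-3 and 0.014 without TG-1, and it was -0.17 without WT-1 and -0.15 without WT-2.

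The balance of upper and deep layers differed from library to library. The mean centred log2 level of all 8 members was 0.29, 0.05 and -0.04 in TG-1, TG-2 and TG-3, and -0.05, -0.06 and -0.19 in WT-1, WT-2 and WT-3, apart by a narrow margin between TG-3 and WT-1. *Rorb* varied far more than the others, and the level was therefore also taken without it, which made the groups overlap, with TG-2 below WT-1. For the 7 members other than *Rorb* it was 0.21 in TG-1, -0.07 in TG-2 and 0.10 in TG-3, and -0.07, -0.08 and -0.09 in WT-1 to WT-3. For the 20 genes of layers 5 and 6 it was -0.29, 0.08 and 0.07 in *Shank3* TG and -0.10, -0.01 and 0.25 in WT. TG-1 thus combined the highest upper layer and the lowest deep layer level, and WT-3 the highest deep layer level with the lowest upper layer level, the latter by a small margin. Without *Rorb*, the upper layer level minus the deep layer level was 0.50, -0.16 and 0.04 in *Shank3* TG and 0.03, -0.07 and -0.34 in WT, so that the genotypes overlapped.

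**Figure D4:**
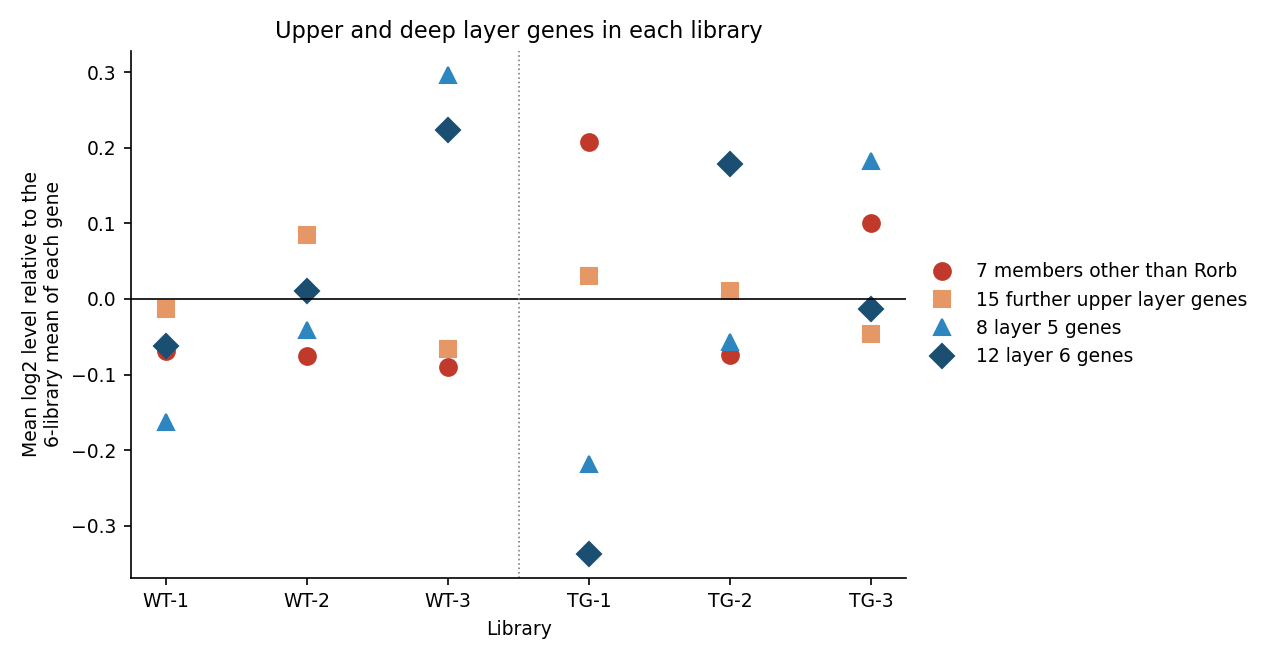
Mean log2 level of 4 groups of layer genes in each library (horizontal axis), relative to the 6-library mean of each gene (vertical axis). TG-1 has the highest value of the 7 members other than *Rorb* (0.21) and the lowest of the layer 6 genes (-0.34), and WT-3 has the highest values of the layer 5 (0.30) and layer 6 genes (0.22).

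Markers that all cortical excitatory neurons share were compared in the same way. The 8 genes had a median log2 fold change of 0.04. *Slc17a7*, a vesicular glutamate transporter, was at 0.13 with a standard error of 0.07 and with *Shank3* TG wholly above WT, and *Camk2a*, *Nrgn* and *Nrn1* had 0.05, 0.04 and 0.02. With each library scaled to these 8 markers, a setting added after the values had been seen, *Otof* had a fold change of 0.39 ± 0.15 and *Wfs1* of 0.25 ± 0.16 (log2 scale, ± standard error). Their unadjusted p-values from limma were then 0.0308 and 0.157. Without this scaling their standard errors were 0.10 and 0.08. The 8 markers themselves varied with the library number. Their mean centred log2 level was 0.23 in TG-3 and 0.18 in WT-3, and -0.13 to -0.05 in the other libraries. Of the markers of other cells, the oligodendrocyte genes *Mobp*, *Cnp* and *Mag* had log2 fold changes of -0.54, -0.28 and -0.30, and the list had a median of -0.43 with 7 of its 8 genes wholly lower in *Shank3* TG. Wholly lower values were found for 3.12% of all tested genes. The striatal list had a median of -0.01 and the inhibitory neuron list of 0.03. The part of these lists in the values of *Otof* and *Wfs1* was not tested.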

How the data were processed

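The authors quantified transcripts with Salmon 0.9.1 on GRCm38 with GC bias correction, summed them to genes with tximport and scaled them by size factors with DESeq2 1.19.11 (R 3.6.0). Whether the scaling also took in transcript lengths from tximport is not given in the sources used here. The deposited signal is the resulting table of normalized counts of 18254 genes. They are not whole: at most 23.1% of the values under 20 in a library lay within 0.02 of multiples of one step, so that reads were not recovered and no counting interval was given. The library totals are set by the size factors, so the depth in reads is unknown here. In their own DESeq2 test, the authors corrected the p-values with an empirical null from fdrtool before the Benjamini-Hochberg adjustment.

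Names and positions came from GENCODE M21 (GRCm38), which held 18231 of the genes. The 16714 genes whose mean reached 5 normalized counts were tested on log2(normalized count + 1), so a fold change is on that scale. The model held genotype alone in limma 3.58.1 (R 4.3.3; eBayes with a trend), two-sided, with Benjamini-Hochberg adjustment over all tested genes and a threshold of 0.05. Each p-value sets the difference between genotypes against the moderated spread between libraries, each of which is a pool of mice. Genes named are the 8 members, up to 4 abundant genes of each other list, *Shank3* and the nearest profiles. *Pou3f2*, *Scnn1a*, *Rspo1*, *Mdga1*, *Tshz2*, *Syt6*, *Ntsr1*, *Crym*, *Foxp2*, *Nxph4* and the inhibitory neuron genes beyond the most abundant were named after their values had been seen. Not every gene that the rule covers is reported here. The lists were for further upper layer, layer 5, layer 6, excitatory neuron, inhibitory neuron, astrocyte, striatal neuron, oligodendrocyte and olfactory bulb genes. The members and lists were chosen with earlier results of these data known. The fit was tested on simulated data.

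Same-numbered libraries deviated together, with correlations across genes of 0.30, 0.33 and 0.62 for numbers 1, 2 and 3 and at most 0.27 for other combinations. The study prepared its samples as pairs, and the number therefore entered an alternative fit as a block. Other settings were a pseudocount of 0.1 or 5, a filter at a mean of 50 or none, upper quartile scaling, quantile normalization, eBayes without a trend or with the robust option, an empirical null, each library left out and the libraries numbered 1 and 2 alone. Scaling to excitatory neuron markers was added later.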

Additional observations from a re-analysis of the deposited data

How the results depend on the processing

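Of the 16714 genes, 0 passed an adjusted p-value of 0.05 in limma's test and 336 had an unadjusted p-value under 0.05. The count was 1 (*Shank3*) with the robust option, with the replicate block and with the libraries numbered 1 and 2 alone, 26 with the empirical null, and 0 to 1 with each library left out (1 without WT-3). Of the 8 members, 0 passed in all settings but the empirical null, which gave 1, *Otof*. The replicate block changed the call of no member. The log2 fold changes of *Otof*, *Wfs1*, *Calb1*, *Cux2* and *Rorb* kept their sign under the pseudocounts and scalings, with each library left out and with the libraries numbered 1 and 2 alone. The filters, eBayes options, block and empirical null leave fold changes as they are by construction. Scaling to excitatory neuron markers lowers all genes by one amount, which puts *Cux1* at -0.014. With each library left out, *Cux1* ran from -0.035 to 0.083 (-0.017 without WT-3), *Rasgrf2* from -0.021 to 0.20 and *Lamp5* from -0.10 to 0.062, and the causes were not tested. Upper quartile scaling and quantile normalization turned the sign of no member. The median of the members ran from 0.07 without TG-1 to 0.20 without TG-2. With 3 pools a group the intervals are wide, and the depth in reads is unknown.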

Other observations

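*Ndnf* and *Reln*, which mark neurogliaform and other interneurons of layer 1, and *Npy*, a neuropeptide of neurogliaform and somatostatin interneurons, were looked at because *Lamp5* is shared with neurogliaform cells. They were chosen after their values had been seen and have the highest log2 fold changes of the 10 inhibitory neuron genes. *Lamp5* itself had -0.04. *Ndnf* had 284, 273 and 277 normalized counts in TG-1 to TG-3 and 194, 223 and 172 in WT-1 to WT-3. The groups did not overlap, and *Shank3* TG was higher by 0.51 on the log2 scale (standard error 0.13). From limma, the adjusted p-value of *Ndnf* was 0.9999 and the unadjusted p-value 0.00406. *Npy* had 2396, 2286 and 2510 normalized counts against 2332, 1967 and 1973, with overlap between TG-2 and WT-1, and its unadjusted p-value from limma was 0.0578, or 0.0191 when the library number was a block. *Reln* differed by 0.23 on the log2 scale with a standard error of 0.17, and TG-3 lay below WT-1 and WT-2. Its unadjusted p-value from limma was 0.219 without the block and 0.0224 with it. Adjusted with the block, limma gave 0.87 for *Npy* and 0.91 for *Reln*. Both were higher in *Shank3* TG at each library number, as were 11.6% of all tested genes. *Reln* was highest in TG-2, with 2920 normalized counts, the library with the high olfactory bulb genes, whose part in this value was not tested. *Gad1*, *Gad2* and *Slc32a1*, which inhibitory neurons share, had log2 fold changes of 0.06, 0.04 and -0.07. The other genes of that list, *Sst*, *Vip*, *Id2* and *Pvalb*, had 0.02, -0.08, -0.11 and -0.15, so that 6 of the 10 genes were above 0 and 4 below.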
